A study of Mus musculus with 5 samples.

Results

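The 8 genes Msx1, Msx2, Id1, Id2, Id3, Smad6, Smad7 and Chrdl1 answer to, or restrain, BMP signalling, and open chromatin around them was mapped by ATAC-seq in mouse forelimb buds in which a subunit of the BAF chromatin remodelling complex was or was not targeted. ATAC-seq inserts sequencing adapters with a transposase where DNA is not packed away. The genes were taken by name from 21631 protein-coding genes. All peak lists were merged wherever peaks shared a base, and every merged region in or within 100 kb of a gene body was kept, which gave 220 of 86713 regions. The 3 mutant embryos were PrxCre/+;Smarcc1c/c and the 2 control embryos were Prx+/+;Smarcc1c/c, so every embryo carried the conditional Smarcc1 allele and only the mutants carried the Cre. Each library held 50 K cells of the anterior forelimbs of 1 embryo at E11.5, with 40 to 48 somites. Prx-Cre acts in limb mesenchyme, so the ectoderm, vessels and immigrant muscle precursors of the same bud are not its targets. Smarcc1 encodes BAF155, a core BAF subunit, and the series asks whether BAF is needed for repression by the GLI factors of Hedgehog signalling.

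BMP ligands bind paired receptors that phosphorylate SMAD1, SMAD5 and SMAD9, and these enter the nucleus with SMAD4 and switch on target genes. Among the most direct targets are the Id genes, whose proteins bind basic helix-loop-helix factors and keep them off DNA, and the homeobox genes Msx1 and Msx2, which mark anterior and distal limb mesenchyme and act in interdigital cell death. SMAD6 and SMAD7 are induced by the same signal and block it from inside the cell, and CHRDL1, chordin-like 1, is a secreted protein that binds BMP ligands and holds them from their receptors.

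The starts of these genes had a peak in every library, and the stretches just before the starts of 1 homeobox gene, of a pair of Id genes and of Smad6 are shown 5′ to 3′ for that reason. RefSeq promoter entries (GRCm38.p6, the coordinates of mm10) matched 5 of the 8 genes, Msx1, Msx2, Id2, Id3 and Smad6. Bases before the gene body are given. Capitals mark GGCGCC, the GC-rich site bound by BMP-activated SMAD proteins, and CAGAC or its reverse complement GTCTG, the other SMAD site.
Msx2, chr13:53472781-53473030, minus strand: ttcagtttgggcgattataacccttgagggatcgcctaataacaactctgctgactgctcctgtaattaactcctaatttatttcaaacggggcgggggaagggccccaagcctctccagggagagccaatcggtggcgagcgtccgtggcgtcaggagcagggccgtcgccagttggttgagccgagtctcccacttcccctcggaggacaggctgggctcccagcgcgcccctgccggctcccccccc
Id2, chr12:25096093-25096342, minus strand: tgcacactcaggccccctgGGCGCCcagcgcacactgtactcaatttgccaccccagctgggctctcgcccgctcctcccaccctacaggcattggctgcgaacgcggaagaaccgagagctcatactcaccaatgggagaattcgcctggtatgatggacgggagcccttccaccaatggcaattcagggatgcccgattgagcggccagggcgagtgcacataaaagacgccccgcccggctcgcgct
Id3, chr4:136143572-136143821, plus strand: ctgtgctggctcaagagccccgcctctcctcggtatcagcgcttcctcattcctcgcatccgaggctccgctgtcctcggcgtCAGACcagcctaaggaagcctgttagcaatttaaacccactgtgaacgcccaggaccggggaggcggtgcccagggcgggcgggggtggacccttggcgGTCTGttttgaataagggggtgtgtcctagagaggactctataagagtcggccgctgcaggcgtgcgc
Smad6, chr9:64022086-64022309, minus strand: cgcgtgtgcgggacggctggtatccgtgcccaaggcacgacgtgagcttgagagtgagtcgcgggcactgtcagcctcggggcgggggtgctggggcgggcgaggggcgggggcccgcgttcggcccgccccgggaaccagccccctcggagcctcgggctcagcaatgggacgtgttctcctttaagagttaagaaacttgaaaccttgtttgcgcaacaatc
Msx1, the other matched gene, held none of these motifs before its start. GGCGCC was found at Id2 alone of the 5, and 9.65% of 32619 promoter stretches held it, each searched over the 250 bases before the start and on both strands. The Smad6 stretch was searched over the 224 bases shown. CAGAC or GTCTG was found at Id3 alone, at base 84 on the printed strand and at base 183 as GTCTG, and 42.1% of all stretches held it. The GLI core GACCACCC, or GGGTGGTC on the other strand, occurred in none of the 5 and in 0.705% of all stretches. The motifs do not overlap one another here. In every library a single peak covered the whole printed stretch at Id2, Id3 and Smad6, and at Msx2 this held in every library except mutant 3.

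The files are peak lists, so the measurement is whether a library has a called peak in a region, with the peak's fold, its pileup over the background of its own library as the authors' peak caller gave it. Folds are not scaled between libraries and are given to show which peaks are strong within a list. The mutant lists held 27194 to 42794 peaks and the control lists 60333 and 68959, and the background, in fragments per position, was 5.48, 5.09 and 4.95 in mutants 1, 2 and 3, against 4.77 and 6.42 in controls 1 and 2. The weakest listed peak had a fold of 2.46 to 2.52 in the mutants and of 2.43 and 2.29 in the controls, so a region with no peak may still be accessible below that level. Mutant 3 had the shortest list. At Smarcc1 itself the gene-end region was open in all libraries, which does not measure the deletion. A peak lay within 1 kb of an end of 7, 6 and 5 of 7 limb mesenchyme marker genes in mutants 1, 2 and 3 and of all 7 in both controls. For 7 ectoderm markers the numbers were 4, 3 and 2 in mutants and 5 and 6 in controls, and for 4 muscle precursor markers 1, 3 and 0 in mutants and 4 and 3 in controls. For 4 neural crest markers they were 3, 4 and 3 in mutants and 4 and 3 in controls, for 5 endothelial markers 2 in each mutant and 3 and 2 in controls, and for 5 blood markers 3 in every library. Both hindlimb markers had such a peak in every library except mutant 3. The part of these differences in the results was not tested. In bulk tissue, fewer cells with an open site and less opening per cell cannot be told apart.

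Most control regions near these genes were still found in at least 1 mutant, and every region at the genes' own ends that both controls shared was found in every mutant. Both controls shared 115 of the 220 regions. Of these, 50 had a peak in all 3 mutants, 28 in 2, 18 in 1, and 19 in none, which is 16.5% (exact 95% interval 10.3% to 24.6%, counting error only). The interval treats the regions as independent, though they lie at 8 genes and come from the same 5 libraries, so it is no test. Over all regions, 30.4% of those in both controls lay in no mutant, and 43.4% lay in all 3, against 43.5% of the member regions. The share in no mutant was thus lower than over all regions, while the share in all mutants was about the same. Over the regions that lie within the same window of any protein-coding gene it was 27.3%. The lower share did not hold under every setting. With every list shortened to the 27194 peaks of the shortest one it was 13.0% for the members and 13.4% for all regions, and with peaks of a −log10 q of at least 10 it was 28.8% for the members and 23.9% for all regions. Counting the regions of the remaining control alone, it was 34.4% without control 1 and 32.7% without control 2, against 41.0% and 47.8% of all regions. Without mutant 2 it was 28.2%, against 36.4% of all regions. Mutants 1, 2 and 3 held a peak at 68.7%, 77.4% and 48.7% of the 115 regions, a mean of 64.9% ± 14.7 (SD, n = 3), and at 60.9%, 61.4% and 48.2% of all control regions. With 3 against 2 libraries an exact two-sided rank test cannot go below p = 0.2, so these counts are set beside those of all regions and carry no test.

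**Figure D1:**
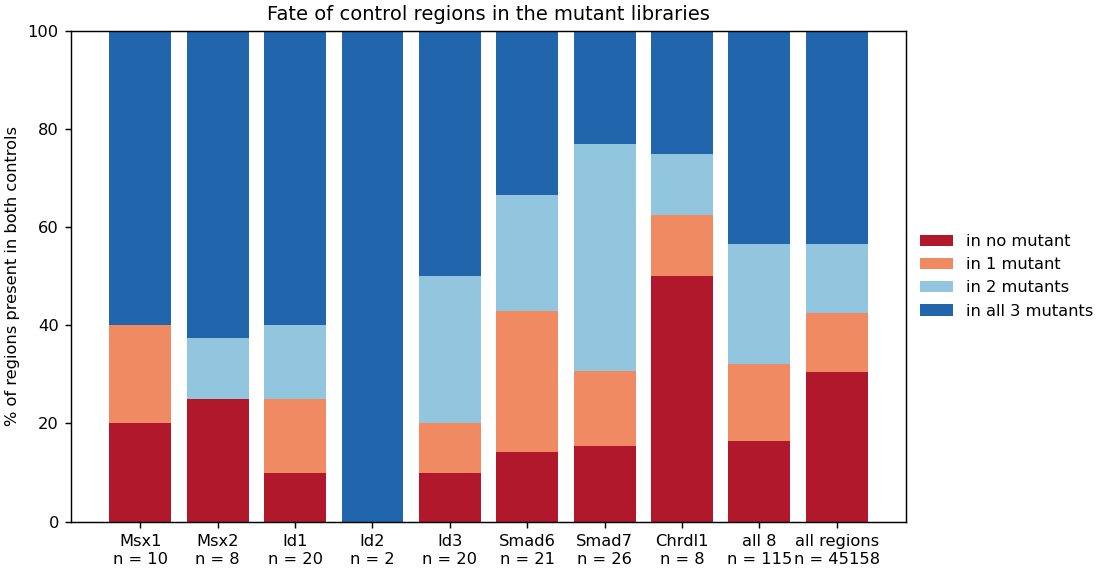
Stacked bars give, for each gene, for all 8 and for all merged regions, the percentage of regions in both controls (n under each name) that had a peak in none, 1, 2 or all 3 mutant libraries. The regions in no mutant make up 50.0% at Chrdl1 and none at Id2, and the regions in 2 mutants are most frequent at Smad7.

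The regions missing from every mutant all lay away from gene ends. Of 23 control regions within 1 kb of an end of any protein-coding gene, 20 had a peak in all 3 mutants and 0 were in no mutant. Taking 3 of 23 as the limit, this allows a share of up to 13.0%. Over all such gene-end regions 4.64% were in no mutant and 81.3% in all 3. Of the 92 other control regions, called distal, 19 (20.7%) were in no mutant, against 42.0% of all distal regions. Among the 23, 12 lay at an end of a member gene, and all 12 were open in all 5 libraries. The remaining gene-end regions belong to neighbours H13, Mcts2, Cox4i2, Rpl11, E2f2, Asap3 and Sptlc1.

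Regions that were strong in the controls were found in the mutants more often than weak ones. No member region with a mean control fold of 6 or more lacked a peak in all mutants, and of the 17 with a mean of 8 or more, 16 (94.1%) had a peak in all 3, against 98.0% over all regions. From 6 to below 8, 10 of 14 (71.4%) had a peak in all 3, against 79.7% over all regions. In these bins 0.343% and 6.96% of all regions lay in no mutant. The exception among the members, with a mean of 8.03, lay above Smad7. Where the mean lay from 4 to below 6, 5 of 46 member regions (10.9%) were in no mutant, and over all regions it was 29.7%. Below 4 it was 14 of 38 (36.8%), against 56.8% over all regions. The highest control fold of any of the 19 regions found in no mutant was 5.25, and it was reached once near Msx1 and once near Msx2.

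**Figure D2:**
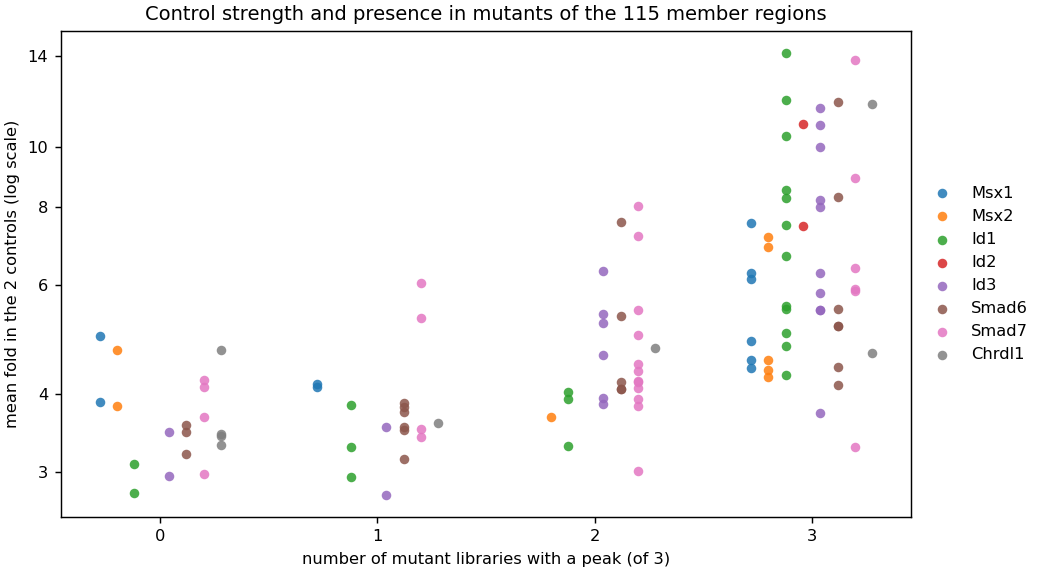
Each point is a region present in both controls near 1 of the 8 genes, coloured by gene, with the mean fold in the 2 controls on a log axis against the number of mutant libraries with a peak. The 19 regions in no mutant all lie below a mean fold of 5, while most points above 8 are in the column of 3 mutants.

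At Msx1 (chr5:37820491-37824585), the homeobox gene used as a marker of BMP response in limb mesenchyme, the gene and its flanks were open in every embryo, and a pair of regions further upstream was open in the controls alone. The start region, chr5:37822939-37825574, had folds of 5.55, 7.55 and 4.71 in mutants 1, 2 and 3, against 7.28 and 7.82 in controls 1 and 2. The region at the other end of the gene, chr5:37816753-37819925, had folds of 5.71, 6.08 and 3.87 in mutants against 5.03 and 4.72 in controls. A region inside the gene near its downstream end (chr5:37820745-37821689) and one 1.19 kb upstream (chr5:37825778-37827821) were also open in all 5. Peaks covered 1840, 1534 and 1334 bp of the start region in mutants and 2404 and 1990 bp in controls. The covered length depends on the calling threshold of each list.

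The pair of Msx1 regions found in no mutant lay upstream. They were 2 of the 10 in both controls, against 30.4% of all control regions. The count was 6 of 15 without control 1, 9 of 18 without control 2 and 1 of 5 with lists of equal length. Over all regions these settings gave 41.0%, 47.8% and 13.4%. The nearer, 24.3 kb away (chr5:37848847-37849663), had folds of 4.68 and 5.25 in controls 1 and 2. The farther, 33.3 kb away (chr5:37857903-37858335), had folds of 3.99 and 3.77. Beyond them 2 more distant regions were open in every library. The one at 68.6 kb (chr5:37893140-37896385) had folds of 5.09, 5.42 and 3.70 in mutants against 6.76 and 5.79 in controls, and the one at 93.2 kb (chr5:37917797-37918652) had folds of 4.17, 3.61 and 3.03 in mutants against 6.07 and 6.20 in controls. Between them, a region 77.1 kb upstream (chr5:37901644-37902356) had a fold of 3.55 in mutant 1, none in mutants 2 and 3, and 5.20 and 3.10 in controls. A region 72.2 kb upstream (chr5:37896765-37897363) was open in mutants 1 and 2, with folds of 3.24 and 4.27, and had no peak in mutant 3 or either control. Of the 25 Msx1 regions, 9 were found in 1 control and nowhere else, with folds of 2.56 to 3.81, and 3 in 1 mutant and nowhere else, with folds of 2.79 to 3.94.

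Msx2 (chr13:53466881-53472780), the paralogue of Msx1, was also open at the gene in all embryos, and a far upstream region was found in the controls alone. Over all control regions, 4.64% of those at gene ends and 42.0% of the distal ones lay in no mutant. The start region, chr13:53471794-53473536, had folds of 5.40, 7.39 and 4.04 in mutants against 7.46 and 6.87 in controls. Mutant 3 had the narrowest peak there, 389 bp, against 1397 and 1359 bp in mutants 1 and 2 and 1114 and 1482 bp in controls. A region 2.74 kb upstream (chr13:53475520-53477087) had folds of 4.63, 5.09 and 3.36 in mutants against 7.63 and 6.20 in controls. The downstream end lay beside a broad region of 4541 bp (chr13:53461668-53466208), split into 7, 3 and 2 peaks in mutants and 6 and 4 in controls, with folds of 4.32, 4.27 and 2.86 in mutants and 5.03 and 3.50 in controls.

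Of the 8 Msx2 control regions, 2 were in no mutant, against 30.4% of all control regions. The count was 1 of 7 at a −log10 q of at least 5, 0 of 2 at 10 and 0 of 2 with lists of equal length. Over all regions these settings gave 27.9%, 23.9% and 13.4%. In the whole lists, 1 of the 2 lay 70.4 kb upstream (chr13:53543193-53543728), with folds of 4.16 and 5.25 in controls. The other lay 41.7 kb downstream (chr13:53424535-53425133), with folds of 3.47 and 4.18. The second is nearer to an end of Gm38564 than to Msx2. A region 23.8 kb downstream (chr13:53442299-53443106) had folds of 4.17 and 3.61 in mutants 1 and 2, none in mutant 3, and 4.51 and 2.83 in controls. Regions 72.6 kb downstream (chr13:53393526-53394328) and at an end of the neighbouring gene Sptlc1 were open in all 5. Another 4 regions were found in 1 mutant alone, 3 of them in mutant 2 and 1 in mutant 1, with folds of 2.96 to 3.55.

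**Figure D3:**
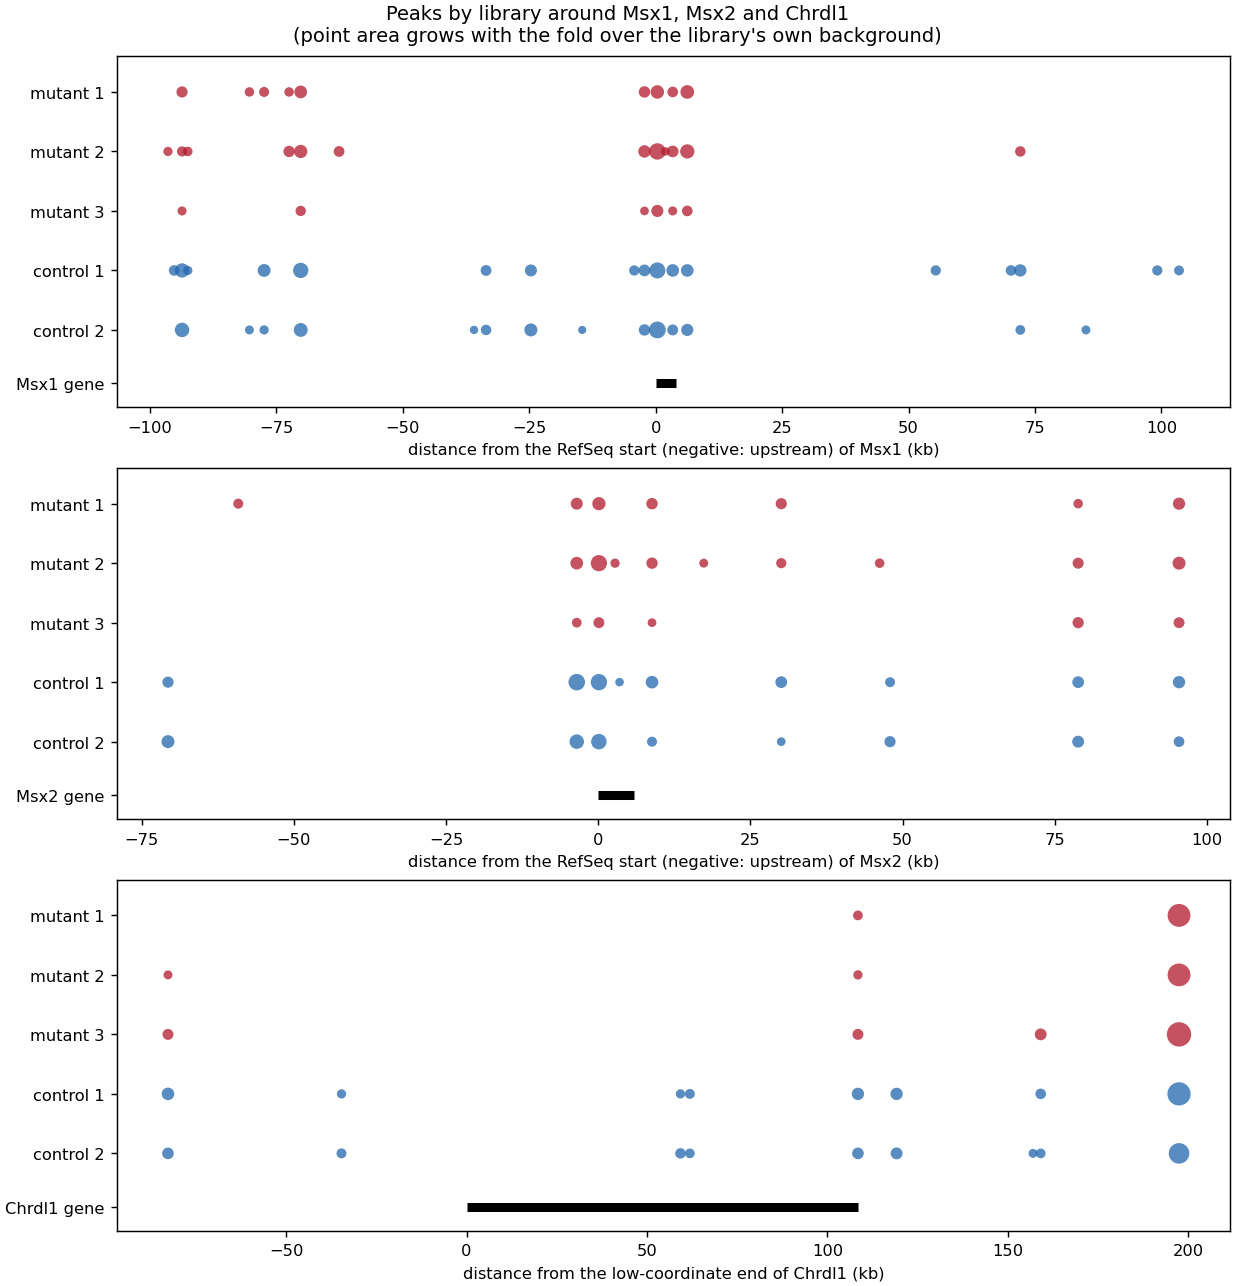
Peaks of each library around Msx1, Msx2 and Chrdl1, with distance in kb from the RefSeq start (Msx1, Msx2) or from the low-coordinate end (Chrdl1) on the horizontal axis, mutants in red, controls in blue, the gene as a black bar and point area growing with the fold. The peaks at the Msx genes recur in all rows, and Chrdl1 has 8 and 9 peaks in controls 1 and 2 and 2 to 4 in mutants.

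The starts of the Id genes lay in some of the broadest open regions of these libraries. Only 25, 16 and 12 of the 86713 merged regions were wider than those of Id1, Id2 and Id3, which spanned 6480, 6902 and 7009 bp, while the median region spanned 475 bp. The widths are those of the merged region, over all 5 lists. Peaks covered 5874, 5802 and 5166 bp of the Id1 region in mutants 1, 2 and 3 and 6063 and 6368 bp in controls 1 and 2. At Id2 they covered 6031, 6894 and 3960 bp in mutants and 6754 and 5993 bp in controls, and at Id3 6673, 6293 and 3229 bp in mutants and 6666 and 6162 bp in controls. Mutant 3 was thus the narrowest at all 3 genes, and mutants 1 and 2 overlapped the controls at Id2 and Id3.

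Id1 (chr2:152736251-152737410) lay in a single strong region that was open in every embryo, and most of the control regions in its window were open in all mutants. The region across the gene, chr2:152734389-152740868, had folds of 9.57, 11.2 and 7.57 in mutants against 12.1 and 11.7 in controls. Regions 5.61 kb below the gene (chr2:152729074-152730637) and 4.09 kb above it (chr2:152741502-152742769) were open in all 5, the first with folds of 5.86, 5.58 and 4.04 in mutants and 7.98 and 7.01 in controls. Of 20 control regions in the window, 12 were open in all mutants (43.4% over all control regions), 3 in 2, 3 in 1 and 2 in none (30.4%). The last count was 7 of 25 without control 1, 4 of 23 without control 2 and 5 of 20 without mutant 2. With lists of equal length it was 0 of 11. Over all regions these settings gave 41.0%, 47.8%, 36.4% and 13.4%. The 2 Id1 regions in no mutant were weak: chr2:152725758-152726183, 10.1 kb from the gene, had folds of 3.12 and 2.43 in controls, and chr2:152805018-152805533, 67.6 kb away and nearer to Bcl2l1, had folds of 3.47 and 2.69. The strongest region of the window, chr2:152829576-152832351, lies by Bcl2l1, a survival gene, and had folds of 12.8, 12.6 and 10.4 in mutants against 15.3 and 13.1 in controls. Only 8 of the 33 regions had Id1 as the nearest gene, so most of the window belongs to its neighbours.

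Id2 (chr12:25093799-25096092) stood in a sparse window of 8 regions, and both regions that the controls shared were open in every mutant. The broad region over the gene and its upstream flank, chr12:25094443-25101344, had folds of 9.41, 10.2 and 8.75 in mutants against 11.4 and 10.4 in controls. A region 101 bp past the downstream end (chr12:25092153-25093698) had folds of 8.79, 8.05 and 4.37 in mutants against 8.32 and 6.60 in controls. The remaining regions were each found in 1 library: 4 in control 1, with folds of 2.60 to 3.47, and 1 each in mutants 1 and 2, with folds of 2.93 and 2.79. Without control 2, 4 of 6 control regions thus lay in no mutant, against 47.8% of all regions. With lists of equal length it was 0 of 2, against 13.4%.

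At Id3 (chr4:136143822-136145392) the start and 2 upstream regions were open in all embryos and were the strongest of the regions nearest to Id3. The start region, chr4:136142414-136149422, had folds of 8.64, 10.3 and 7.23 in mutants against 9.71 and 11.99 in controls. A region 2.29 kb upstream (chr4:136139803-136141528) had folds of 8.64, 8.54 and 8.91 in mutants against 11.96 and 11.2 in controls, and one 7.33 kb upstream (chr4:136134243-136136493) had folds of 5.55, 6.08 and 4.04 in mutants against 8.32 and 7.68 in controls. In mutant 3 and in control 1 the peak 2.29 kb upstream had a higher fold than the peak at the start, and in mutant 1 the folds were equal.

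Of 20 Id3 control regions, 10 were open in all mutants (43.4% over all control regions), 6 in 2, 2 in 1 and 2 in none (30.4%). The last count was 8 of 26 without control 1, 5 of 24 without control 2 and 4 of 20 without mutant 2. With lists of equal length it was 1 of 12. Over all regions these settings gave 41.0%, 47.8%, 36.4% and 13.4%. Of the 8 regions in 1 or 2 mutants, 7 lacked a peak in mutant 3, and over all regions it was 81.7%. Of the 6 in 2 mutants it was 5, against 76.3% over all regions. Within these subsets mutant 3, with the shortest list, thus lacked about as many as elsewhere. Of all 20 control regions, 5 (25.0%) were open in mutants 1 and 2 and not in mutant 3, against 10.8% over all control regions. Among them were a region 4.5 kb downstream (chr4:136149891-136151338), with folds of 3.39 and 3.61 in mutants 1 and 2, against 5.03 and 5.39 in controls, and one 18.03 kb downstream (chr4:136163418-136164066), with folds of 4.01 and 5.26 in mutants 1 and 2, against 5.37 and 7.28 in controls. The 2 regions in no mutant lay 38.55 kb upstream (chr4:136104733-136105272), with folds of 2.95 and 2.96 in controls, and 73.1 kb downstream (chr4:136218464-136219312), nearest to Asap3, with folds of 3.99 and 2.96. A region 31.2 kb downstream, nearest to the cell cycle gene E2f2 (chr4:136176617-136176891), was open in mutants 1 and 3, with folds of 3.09 and 3.03, but not in mutant 2 or either control.

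**Figure D4:**
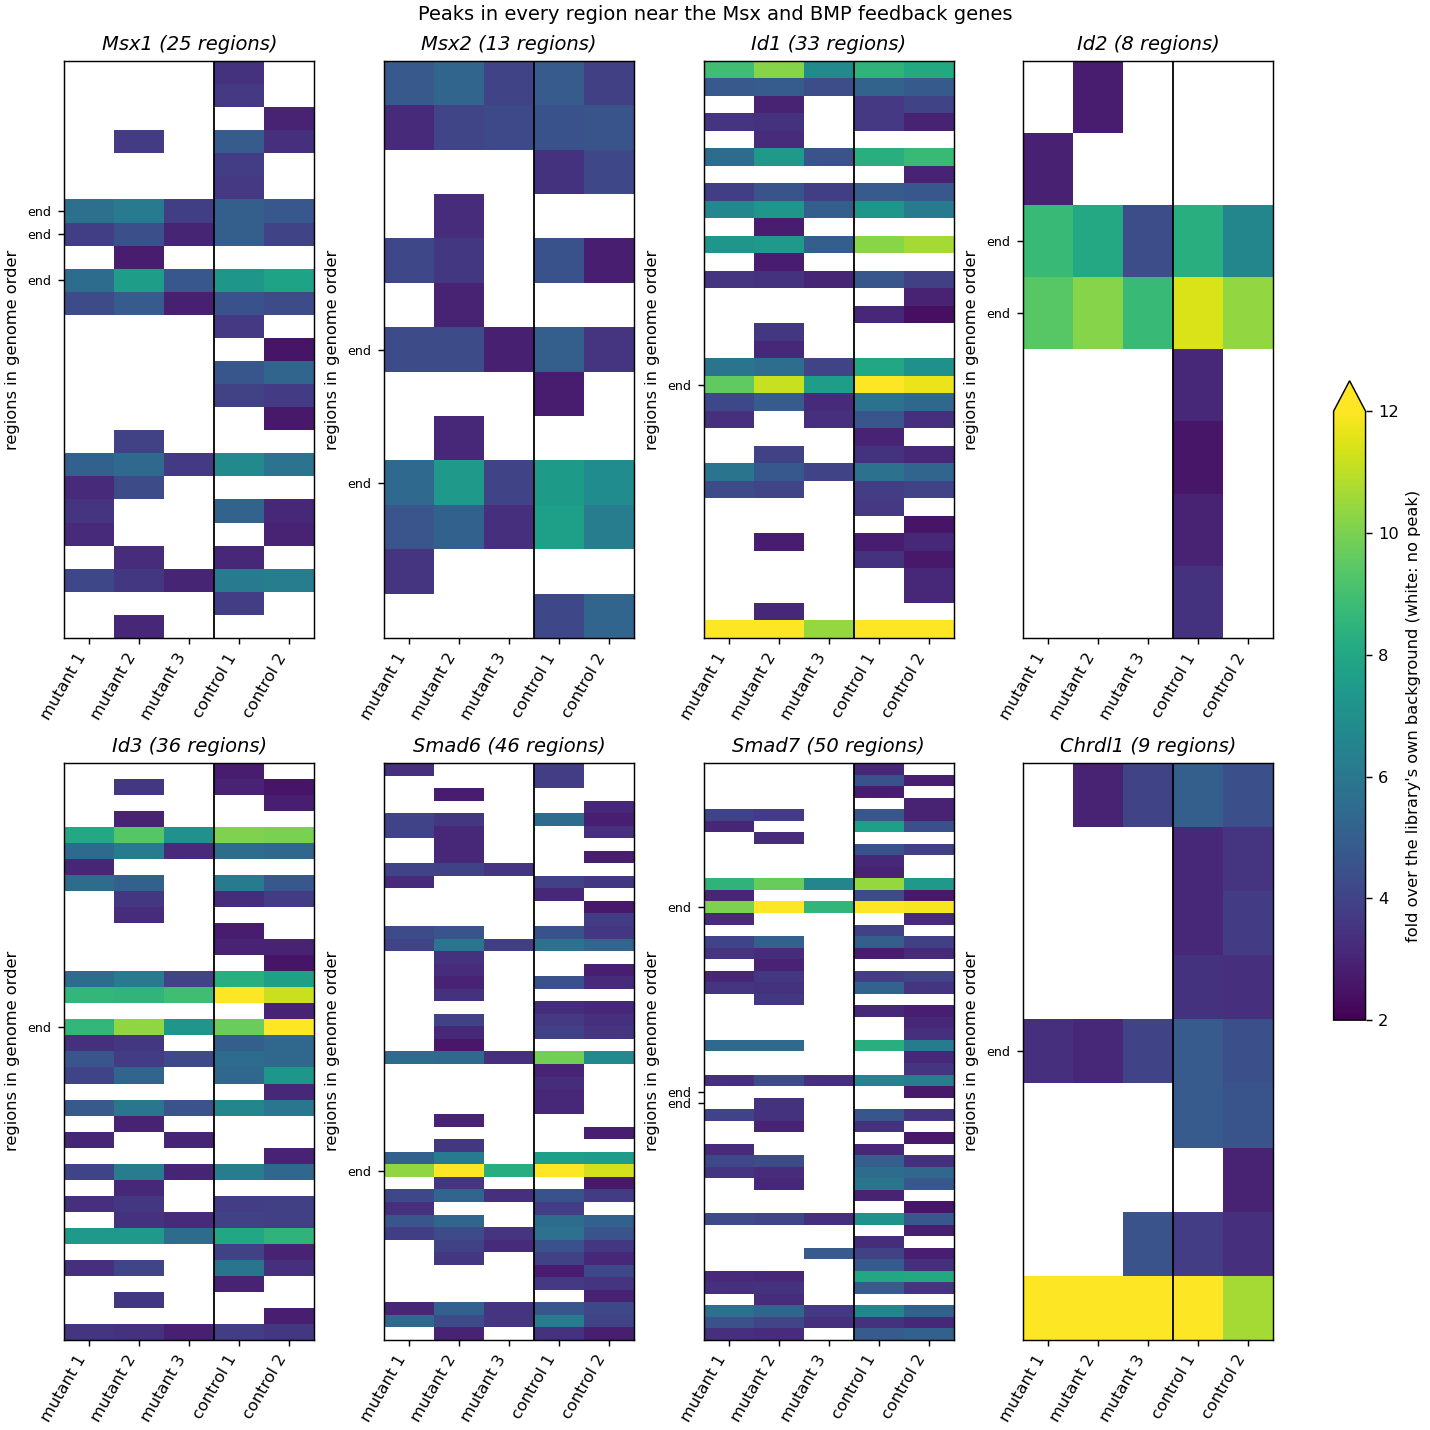
Every region in or within 100 kb of each gene, as rows in genome order, in the 3 mutant and 2 control libraries, coloured by the fold over the library's own background and white where there is no peak; "end" marks regions at an end of the gene itself. The rows marked end are filled across all libraries, apart from 2 at Smad7 that are each in 1 library.

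Smad6 (chr9:63953076-64022085), the inhibitor of BMP receptor signalling, was the one member with a region open in all mutants and in neither control. That region, chr9:63918361-63918708, lay 34.4 kb beyond the downstream end of the gene. Its folds were 4.01, 3.94 and 3.53 in mutants 1, 2 and 3, and no peak was listed there in controls 1 and 2. The pileup at the summit was 25, 23 and 20 fragments in mutants 1, 2 and 3, while the lowest summit pileup of any listed peak was 13 and 16 fragments in controls 1 and 2. The peaks were narrow, with widths of 340, 321 and 267 bp, and their summits, at positions 63918628, 63918556 and 63918531 on chromosome 9, all lay in the stretch that the 3 peaks share. Their −log10 q values were 7.23, 6.57 and 4.67, so at a minimum of 5 the peak of mutant 3 is lost and the region no longer counts.

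Only 42 of all 86713 merged regions (0.0484%) were open in all mutants and in neither control, and the Smad6 region was 7th among the 42 by mean mutant fold, at 3.83 where the highest was 4.81 and the median 3.43. In lists of equal length its peaks in mutants 1 and 2 were still listed. Without mutant 2 or without mutant 3 the count is 2, since the Id3 or the Msx1 region described above is added. With lists of equal length 3 more member regions counted as open in the mutants alone, but each had a peak in both controls in the whole lists. They were a part of the broad region downstream of Msx2 (chr13:53463899-53465747), one near the start of Smad6 (chr9:64025058-64026013) and one at the edge of the Smad7 window (chr18:75492989-75493575). At the second, control 1 had a fold of 4.51 in the whole list, against 4.17, 5.26 and 3.36 in mutants 1, 2 and 3. The lists of equal length start at folds of 4.51 and 4.04 in controls 1 and 2, and at 3.39, 3.61 and 2.52 in mutants 1, 2 and 3. The closest region to the one found in the mutants alone, chr9:63916183-63916569, had folds of 3.12 in mutant 2 and 2.83 in control 2 and no peak elsewhere. Another region on that side, chr9:63909705-63910126, 43.0 kb from the gene, had folds of 4.01 and 3.12 in mutants 1 and 2, none in mutant 3 or control 1, and 3.37 in control 2.

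The start of Smad6 was the strongest site of its window in every library. The region chr9:64020056-64023706 had folds of 10.3, 12.3 and 8.24 in mutants against 12.3 and 11.3 in controls, and peaks covered 3399, 3573 and 2523 bp of it in mutants and 3401 and 3457 bp in controls. Next to it, inside the gene, chr9:64016722-64020018 had folds of 5.09 and 6.08 in mutants 1 and 2, no peak in mutant 3, and 7.63 and 7.55 in controls. Further inside, chr9:63979613-63981512 had folds of 5.55, 5.42 and 3.36 in mutants against 9.88 and 6.74 in controls. Near the downstream end, chr9:63957793-63961130 had folds of 4.01, 5.91 and 3.87 in mutants against 5.72 and 5.25 in controls.

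Of 21 Smad6 control regions, 7 were open in all mutants (43.4% over all control regions), 5 in 2, 6 in 1 and 3 in none (30.4%). The last count was 9 of 32 without control 1, 11 of 31 without control 2 and 9 of 21 without mutant 2. With lists of equal length it was 0 of 7. Over all regions these settings gave 41.0%, 47.8%, 36.4% and 13.4%. The 3 Smad6 regions in no mutant had control folds of 2.77 to 4.18: chr9:63973556-63974063 inside the gene had folds of 3.29 and 3.10, and chr9:64074923-64075303 and chr9:64078335-64078885, 52.8 and 56.3 kb upstream, had folds of 2.77 and 4.18 and of 3.64 and 3.50. The last pair is nearer to an end of Lctl. Upstream, chr9:64057978-64058888 at 35.9 kb had folds of 3.86, 4.27 and 3.53 in mutants against 5.72 and 4.58 in controls, and chr9:64049590-64050604 at 27.5 kb had folds of 4.63 and 5.26 in mutants 1 and 2, none in mutant 3, and 5.55 and 5.12 in controls. Of the regions in a single library, 7 were in 1 mutant and 11 in 1 control, and none had a fold above 3.81.

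Smad7 (chr18:75367365-75395935), which blocks both BMP and TGF-beta receptors, had the most regions of the 8 genes, and mutant 3 lacked many of them. The region at the low-coordinate end, chr18:75366257-75370988, had folds of 10.03, 12.3 and 8.58 in mutants against 15.8 and 11.9 in controls, with 4536, 4565 and 3259 bp covered in mutants and 4625 and 4500 bp in controls. A region 22.6 kb below it, chr18:75342099-75344722, had folds of 8.49, 9.69 and 6.56 in mutants against 10.4 and 7.41 in controls. The first was the strongest site of the window in every library, and the second came next in all of them except control 2.

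Of 26 Smad7 control regions, 12 (46.2%) had a peak in mutants 1 and 2 and none in mutant 3. Another 6 were open in all mutants (43.4% over all control regions), 4 in 1 and 4 in none. Over all control regions 10.8% were open in mutants 1 and 2 and not in mutant 3, and over the 8 genes it was 24 of 115 (20.9%). With every list at the length of mutant 3's, a setting added after these values were seen, it was 1 of 11 Smad7 regions. At a −log10 q of at least 5 it was 4 of 19, at 10 it was 2 of 11, and with summits within 250 bp 6 of 21. With 100 shared bp it was 11 of 26, within 50 kb 8 of 16, and with the nearest end that of Smad7 8 of 14. The share over all regions was not computed for these settings. Of the 12, 5 lay inside the gene. The strongest of these, chr18:75385834-75387124, had folds of 5.40 and 5.42 in mutants 1 and 2, against 8.32 and 6.06 in controls. Outside it, 65.8 kb above the gene and nearer to Ctif, chr18:75461719-75463681 had folds of 3.24 and 3.12 in mutants 1 and 2, against 7.98 and 8.08 in controls, the highest mean of any member region that lacked a peak in some mutant. A run of 3 regions just above the gene, at 1.98, 5.47 and 9.13 kb, followed the same pattern.

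The 4 Smad7 regions found in no mutant had control folds of 2.83 to 4.85. They were 15.4% of the 26 control regions, against 30.4% of all control regions. The count became 7 of 19 at a −log10 q of at least 5 and 7 of 11 at 10, against 27.9% and 23.9% over all regions. Counting the regions of the remaining control, it was 16 of 37 without control 1 and 11 of 36 without control 2. Over all regions these were 41.0% and 47.8%. The strongest by mean, chr18:75319173-75320102, lay 47.3 kb below the gene, with folds of 4.51 and 3.91 in controls, and chr18:75456578-75457452, 60.6 kb above it, had folds of 4.85 and 3.37. Among the regions in 1 mutant, chr18:75296480-75297436 had a fold of 3.09 in mutant 1 and 7.63 and 4.45 in controls, and chr18:75446701-75447778 had a fold of 4.88 in mutant 3 alone of the mutants and 3.99 and 2.83 in controls. A region at the edge of the window, chr18:75492872-75493736, was open in all 5, with folds of 4.47, 4.11 and 3.36 in mutants and 3.47 and 3.10 in controls.

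**Figure D5:**
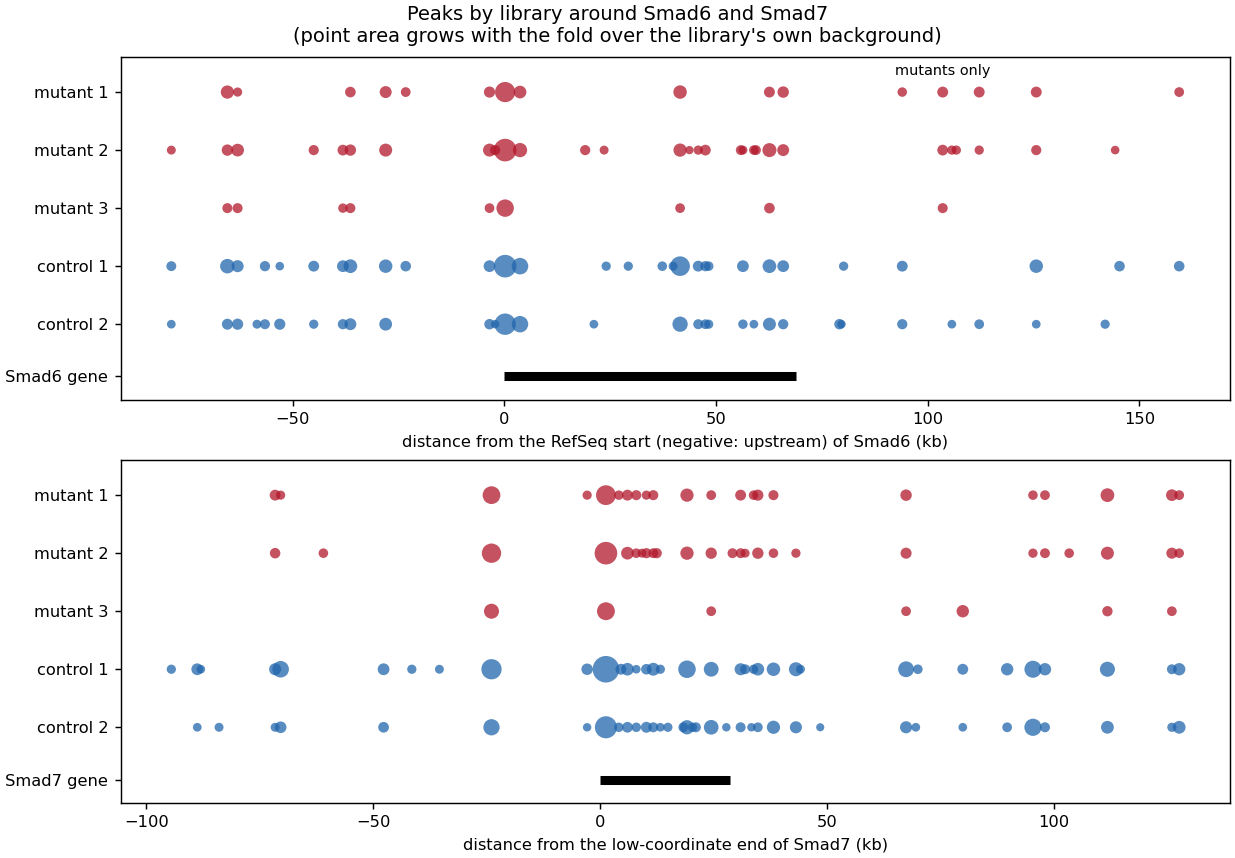
Peaks of each library around Smad6 (distance in kb from its RefSeq start, negative upstream) and Smad7 (distance from its low-coordinate end), mutants in red, controls in blue, the gene as a black bar and point area growing with the fold. The label "mutants only" marks the Smad6 region with folds of 4.01, 3.94 and 3.53 in mutants, and mutant 3 has few peaks within Smad7.

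Chrdl1 (chrX:143285674-143394263), the secreted BMP antagonist, had 8 control regions. Of these, 4 were in no mutant, 1 in 1, 1 in 2 and 2 in all 3 (43.4% over all control regions). At a −log10 q of at least 5 it was 1 of 5 in no mutant, at 10 it was 3 of 4, and with lists of equal length 1 of 4. Over all regions these settings gave 27.9%, 23.9% and 13.4%, and the whole lists 30.4%. For Smad7 the same settings gave 7 of 19, 7 of 11 and 4 of 11, so the order of the genes by this share depends on the threshold. Peaks in the window covered 0.652, 0.982 and 1.29 kb in mutants 1, 2 and 3 and 4.22 and 4.21 kb in controls 1 and 2, so each mutant was below each control. The mutant lists are shorter as a whole, and the same order held in every other window except that of Id2. The gene-end region, chrX:143393680-143394535, was open in all 5, with folds of 3.39, 3.12 and 4.04 in mutants and 4.85 and 4.45 in controls, and peaks there spanned 295, 367 and 296 bp in mutants and 789 and 806 bp in controls. The embryos' sex is not in the labels, so the number of X chromosomes was not taken into account.

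The 4 Chrdl1 regions in no mutant lay on both sides of the gene and inside it. The strongest, chrX:143404321-143405314, 10.1 kb above the gene, had folds of 4.85 and 4.58 in controls. A pair inside the gene, chrX:143344665-143345193 and chrX:143347242-143347838, had folds of 3.12 and 3.77 and of 3.47 and 3.37, and chrX:143250856-143251214, 34.5 kb below the gene, had folds of 3.12 and 3.50. Mutant 3, the shortest list, held a peak where mutant 1 had none at 2 control regions. At chrX:143202583-143203331 the folds were 2.96 and 4.04 in mutants 2 and 3 and 5.03 and 4.45 in controls, and at chrX:143444527-143444960 the fold was 4.54 in mutant 3, with no peak in mutants 1 and 2, and 3.81 and 3.37 in controls. Over all control regions, 1.44% were, like the second of these, open in mutant 3 and in neither other mutant. Like the first, 595 of 45158 lacked a peak in mutant 1 only. By contrast, a narrow region at the edge of the window, chrX:143482888-143483247, 88.6 kb above Chrdl1 and nearest to Pak3, was strong throughout, with folds of 12.5, 12.5 and 13.8 in mutants and 12.8 and 10.6 in controls.

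Regions found in a single library made up much of the rest. Of the 220 regions, 30 (13.6%) were in mutant 2 alone, 3 (1.36%) in mutant 1 alone and 0 in mutant 3 alone. Taking 3 of 220 as the limit, the last allows a share of up to 1.36%. Another 29 (13.2%) were in control 1 alone and 29 in control 2 alone. Over all merged regions the shares were 2.30%, 8.03% and 0.787% for mutants 1, 2 and 3 alone and 19.7% and 10.3% for controls 1 and 2 alone. The member regions found in 1 mutant alone had folds of 2.63 to 3.94, and those in 1 control alone 2.56 to 3.99. None lay above the median fold of its own list, which was 4.17 and 3.94 in mutants 1 and 2 and 3.99 and 3.77 in controls 1 and 2. In neither control were 36 of the 220 regions, and over all regions 11.8%.

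The other genes of the pathway, a list of 25, had 245 regions in both controls, counted with the same window and without the member regions. Of these, 59 (24.1%) were in no mutant and 111 (45.3%) in all 3, against 30.4% and 43.4% of all control regions. None of the regions of these genes was open in all mutants and neither control. By role, the share in no mutant was 14 of 56 for the ligands, 19 of 59 for the receptors, 4 of 26 for the signalling SMADs, 11 of 47 for the antagonists and modulators, and 11 of 57 for Tcf3, Tcf4 and Tcf12, the E proteins that Id proteins bind. Over all regions it was 30.4%. The genes named next were picked because they had the most regions in no mutant or in all 3 within their role. Bmp7, a ligand of the limb bud, had 7 of 23 regions in no mutant and 9 in all 3. The type I receptor gene Bmpr1b, which acts in digit cartilage, had 11 of 25 in no mutant, and Acvr2b, a type II receptor, had 6 of 10 in all mutants. Among SMAD genes, Smad1 had 3 of 6 in no mutant and Smad4 5 of 7 in all. Of the antagonists, Chrd, which encodes chordin, had 3 of 15 in no mutant and 8 in all, and Bmper, whose protein binds BMP ligands, had 3 of 6 in no mutant. Tcf4 and Tcf12 each had 4 in no mutant, of 18 and 11 regions, and Tcf3 had 17 of 28 in all mutants.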

How the data were processed

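The submitters' processing notes name bcl2fastq 2.20.0, Bowtie2 2.3.5, the mm10 build and MACS2. The sources do not give the version or options of MACS2, nor say how duplicates or the transposase offset were handled: an offset left uncorrected shifts peak borders slightly, and duplicates raise pileups. The authors deposited a separate peak list for each of the 5 libraries. Its columns are positions in base pairs (an other kind of value), a score for display, deposited by the authors and not used here, the fold (a ratio of pileup to background, per the deposited columns), and −log10 of p and of q, also as deposited by the authors. Read depth is unknown. The deposited folds fell on evenly spaced steps (100% within 0.02 of one), from which each library's single background and each summit's pileup were computed.

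Peaks on chromosomes 1 to 19 and X were merged on 1 shared bp in Python 3.11.15 with pandas 2.3.3, by code tested on simulated data. A region's fold in a library is that of its strongest peak there. Gene bodies came from the RefSeq table of GRCm38.p6. Sides are named upstream or downstream where the promoter table gives a strand, and above or below by coordinate elsewhere. A region's nearest gene has the end closest to its strongest summit. Groups follow the genotype label. Replicate numbers only name the libraries. The members and lists were chosen with earlier results of these data known. Named genes are the 8 members, genes nearest to a described region, Smarcc1, and, for each role in the pathway list, the genes with the most regions in no mutant and in all mutants. No test was run. Alternatives changed the peak threshold, the list length, the overlap, the window and the libraries used.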

Additional observations from a re-analysis of the deposited data

How the results depend on the processing

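The counts moved with the peak threshold, the list length and the window, while the division between gene ends and distal regions is described for the whole lists only. Both controls shared 115 regions with the whole lists, 52 at a −log10 q of at least 10, 54 with every list at the length of the shortest, 71 within 50 kb and 62 where the nearest gene end was that of a member. The 19 regions in no mutant became 7 with lists of equal length, 12 within 50 kb and 11 with the nearest end, and 21 to 53 with 1 library left out, the most without control 1. Their share of 16.5% became 28.8% at a −log10 q of at least 10 and 18.3% to 34.4% with 1 library left out. The 50 regions in every library became 30 at a −log10 q of at least 5, 14 at 10, 28 with summits within 250 bp and 27 with the nearest end. The single region in all mutants and neither control became 0 at a −log10 q of at least 5 or 10, 4 with lists of equal length, 2 with summits within 250 bp, and 1 to 2 with 1 library left out. The mean share of control regions with a peak per mutant was 49.8% to 73.0% with 1 library left out. Of 96 values by gene under these settings, 55 stayed within 1.5 times of the whole-list value, 17 were higher and 24 lower. Shorter lists and smaller windows hold fewer regions by construction. With 1 control left out, every region of the remaining control counts, and with 1 mutant left out, absence from the other mutants is enough. The count in no mutant thus rises largely by construction when a library is left out. For the other settings the cause was not tested. No paired analysis was possible because the replicate numbers follow accession order, pair no libraries, and the results come from no test. Depth is unknown, so a region without a peak is one below the calling level of its library.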
